A study of Mus musculus with 8 samples.

Results

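Col6a1, Col6a2, Col6a3, Col8a1, Col12a1, Col14a1 and Col16a1 encode collagens other than the major fibril-forming types. These 7 genes, of 31053 in the files, were taken by symbol and described in the muscle stromal cells known as fibro/adipogenic progenitors (FAPs), which carry PDGFRα. The donors were female mice aged 8 months, either dysferlin knockout (strain given as BLA/J in the labels and as B6A/J in the protocol) or wild type (C57BL/6), and the tissue was hindlimb muscle. Dysferlin is a membrane repair protein whose loss causes a muscular dystrophy. Muscle was digested with collagenases and dispase, and live PDGFRα-positive cells were sorted from it for droplet-based 3′ sequencing. No treatment is given in the labels. The labels list 4 samples in each group, but each group is 1 matrix and nothing maps cells to samples, so each group was 1 library. No comparison between the groups has a replicate check, a test or a p-value, and genotype, strain and library cannot be told apart.

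Cells were the barcodes with at least 500 genes, at most 10% mitochondrial transcripts and at least 1 Pdgfra transcript: 1435 of 1724 barcodes in the knockout library and 1533 of 2073 in the wild type library. Transcripts were counted as unique molecular identifiers (UMIs). The chosen cells held 19170199 UMIs in the knockout library and 14420247 in the wild type library, with medians of 12717 and 9177 UMIs per cell. The libraries shared 13 barcodes, 2 of them among the chosen cells. All 10 markers used to check the FAP label were seen in at least 50% of the chosen cells of both libraries. Pdgfra is among the 10 and was in every chosen cell by the rule, so only the others are a check. Levels are given as UMIs per 1000000 UMIs of the library's chosen cells (CPM). Immune markers summed to 24.5 CPM in the knockout cells and 5.06 CPM in the wild type cells, with Cd3e at 0 in both and Ptprc and Nkg7 also at 0 in wild type. Tenocyte markers summed to 961 and 580 CPM, nearly all of it Thbs4. The summed markers of endothelial, mural, Schwann, satellite and muscle fibre cells lay between 8.503 and 55.8 CPM in the knockout cells and between 20.7 and 68.9 CPM in the wild type cells. Clusters led by genes of other cells remained among the chosen barcodes: 39 knockout and 0 wild type cells led by C1qa, Cma1, Igha and Mcpt4, and 3 knockout and 41 wild type cells led by Hba-a1, Hbb-bs, Gpihbp1 and Fabp4. Ratios without the 245 knockout and 167 wild type cells that carried at least 2 markers of another class are given with the levels. Dysf, the disrupted gene, had 14 UMIs in the knockout cells and 9 in the wild type cells, too few to check the labels, and 3′ tags do not show whether a transcript is disrupted upstream.

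Collagen VI is a beaded microfibril of the matrix around muscle fibres. Its alpha chains, encoded by Col6a1, Col6a2 and Col6a3, assemble into a heterotrimer inside the cell, and mutations in any of them cause Bethlem myopathy or Ullrich congenital muscular dystrophy in humans. In muscle the interstitial fibroblasts are known as its main source. Collagens XII, XIV and XVI belong to the FACIT class, whose molecules sit on the surface of collagen fibrils and link them to neighbouring matrix. Mutations of the human gene of collagen XII also cause a myopathy, and Col14a1 is known from tendon and skin fibroblasts. Collagen VIII, of which Col8a1 encodes a chain, is a short network-forming collagen known from vessel walls and injured tissue.

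The knockout cells held more transcripts of 6 of the 7 genes. Col6a3 and Col16a1 were more than 1.5-fold higher in the knockout library, Col6a1, Col6a2, Col8a1 and Col14a1 were 1.34-fold to 1.45-fold higher, and Col12a1 was lower, at 0.803 of its wild type level. Levels carry exact 95% Poisson intervals that cover counting error only. A 3′ tag is counted once per captured transcript, so CPM was not divided by transcript length, and levels of different genes are compared as captured tags.

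The 3 chains of collagen VI were the most abundant of the 7 genes. Col6a1 had 1523 CPM in the knockout cells (1505.5 to 1540.5) and 1085 CPM in the wild type cells (1068 to 1102), a log2 ratio of knockout over wild type of 0.49 with a counting interval of 0.46 to 0.52. Col6a2 had 1361 CPM in the knockout cells and 1003 CPM in the wild type cells, a log2 ratio of 0.44 (0.41 to 0.47). Col6a3, whose chain carries the longest non-collagenous ends and releases the endotrophin fragment, had 1701 CPM in the knockout cells (1683 to 1720) and 930 CPM in the wild type cells (914 to 945.5). Its log2 ratio was 0.87 (0.84 to 0.90), or 1.83-fold, the largest of the 3 chains. Without cells carrying markers of another class the log2 ratios of Col6a1, Col6a2 and Col6a3 were 0.49, 0.43 and 0.89. Summed over the chains the level was 4586 CPM in the knockout cells and 3018 CPM in the wild type cells. By mean level over both libraries Col6a3, Col6a1 and Col6a2 ranked 123, 125 and 138 among all 31053 genes.

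Col6a1 and Col6a2 are neighbours in the same orientation on chromosome 10 of mm10 (76708792 to 76726168 and 76595762 to 76623630, minus strand), with a gap of 85161 bases that holds 0 annotated protein-coding genes. Col6a3 lies on chromosome 1 (90765923 to 90843971, minus strand). Since these 3 transcripts were seen together in the same cells, as described further on, their promoters are shown as RefSeq gives them on GRCm38.p6, from 250 bases before the annotated start to 50 after it. They are listed 5′ to 3′ in the direction of transcription, and cover chr10:76725995-76726294, chr10:76623581-76623880 and chr1:90843922-90844221, all on the minus strand. RefSeq gives a further start of Col6a2, 226 bases downstream, whose window is not shown. The start used for Col6a1 lies 124 bases from that of the principal GENCODE transcript, and that of Col6a3 19 bases. Capitals mark matches, on either strand, to AP-1 (TGANTCA), the GC box (GGGCGG), the CCAAT box (CCAAT) or the TATA box (TATAAA).
Col6a1: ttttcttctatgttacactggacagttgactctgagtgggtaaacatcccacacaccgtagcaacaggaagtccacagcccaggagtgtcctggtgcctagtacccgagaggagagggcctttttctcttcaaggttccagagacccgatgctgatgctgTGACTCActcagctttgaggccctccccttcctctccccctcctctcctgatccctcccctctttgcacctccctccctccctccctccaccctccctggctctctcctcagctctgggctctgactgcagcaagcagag
Col6a2: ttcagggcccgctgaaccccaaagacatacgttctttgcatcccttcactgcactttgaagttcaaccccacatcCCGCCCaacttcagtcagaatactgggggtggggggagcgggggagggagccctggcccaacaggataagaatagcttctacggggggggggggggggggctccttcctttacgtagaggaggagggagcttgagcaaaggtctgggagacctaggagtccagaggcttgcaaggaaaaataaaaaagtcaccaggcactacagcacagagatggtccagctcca
Col6a3: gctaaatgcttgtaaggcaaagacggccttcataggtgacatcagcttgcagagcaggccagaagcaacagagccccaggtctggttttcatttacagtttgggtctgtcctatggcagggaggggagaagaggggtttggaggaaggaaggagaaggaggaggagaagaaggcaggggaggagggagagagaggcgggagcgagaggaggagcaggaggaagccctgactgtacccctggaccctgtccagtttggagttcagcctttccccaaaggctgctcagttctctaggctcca
The Col6a1 window had 1 AP-1 match, at position -90 relative to the start, a motif found in 7.81% of the 32851 promoter windows of the same length. The Col6a2 window had 1 GC box match, a motif found in 35.7% of the windows, and the window of its downstream start had 3. The Col6a3 window had no match to any of the 4 motifs. Promoters were also listed for Col8a1, with 4 GC box matches, and for Col16a1, with 2 GC box matches and 1 CCAAT match. A match describes the letters of this window and is not evidence of binding.

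Of the fibril-associated genes, Col14a1 was the most abundant. It had 549 CPM in the knockout cells (539 to 560) and 378 CPM in the wild type cells (368 to 388), a log2 ratio of 0.54 (0.49 to 0.59), and lies on chromosome 15 (55307750 to 55520803). Col16a1 (chromosome 4, 130047840 to 130099283) had 82.3 CPM in the knockout cells (78.2 to 86.4) and 44.0 CPM in the wild type cells (40.6 to 47.5). Its log2 ratio of 0.90 (0.77 to 1.04), or 1.87-fold, was the largest of the 7. Col12a1 (chromosome 9, 79598991 to 79718831) had 26.3 CPM in the knockout cells (24.1 to 28.7) and 32.8 CPM in the wild type cells (29.9 to 35.9), a log2 ratio of -0.32 (-0.50 to -0.13). Its direction depended on which cells were counted: without the cells that carry at least 2 markers of another cell class the log2 ratio was 0.11, against 0.53 for Col14a1, 0.96 for Col16a1 and 0.58 for Col8a1. Col8a1 (chromosome 16, 57624258 to 57754737) had 303 CPM in the knockout cells (296 to 311) and 227 CPM in the wild type cells (219 to 235), a log2 ratio of 0.42 (0.36 to 0.48). Antisense genes that overlap Col12a1 and Col14a1 in the file's gene list had 0 UMIs in both libraries.

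**Figure D1:**
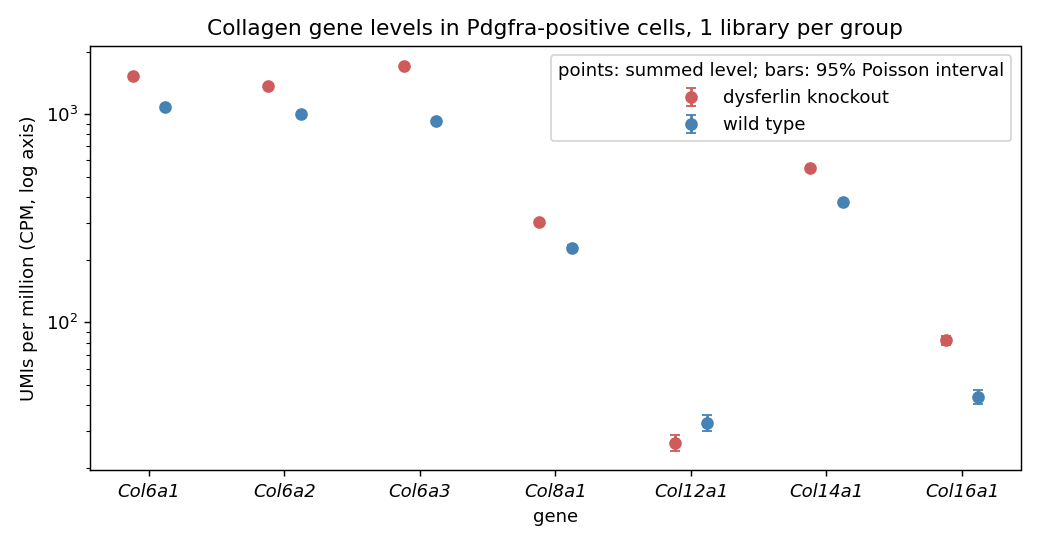
Level of each gene in CPM on a log axis, in Pdgfra-positive cells of the dysferlin knockout library (red, left of each pair) and the wild type library (blue, right); points are summed levels and bars 95% Poisson intervals, with 1 library per group. Col6a3 is at 1701 CPM in the knockout and 930 CPM in the wild type library, and Col12a1 alone is higher in wild type.

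The order of the levels differed between the libraries at the top. In the knockout cells it ran Col6a3, Col6a1, Col6a2, Col14a1, Col8a1, Col16a1 and Col12a1. In the wild type cells Col6a1 came first, then Col6a2 and Col6a3, followed by the same order as in the knockout from Col14a1 to Col12a1. The counting intervals of neighbours in the order did not overlap in either library, but the spread between animals is unknown.

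Against all genes, the collagens stood on the higher side. All 7 genes were among the 5933 with a mean level of at least 20 CPM. Of these 7, Col6a3 and Col16a1 (2 genes) stood 1.5-fold or more above wild type, beside 5.07% of the 5933 genes. None of the 7 was at least 1.5-fold lower, beside 3.59% of the genes. None reached 2-fold in either direction, which 1.77% of the genes passed as higher and 1.01% as lower. The median log2 ratio was 0.49 over the 7 genes and 0.05 over all 5933.

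The balance between the collagen VI chains differed between the libraries. Col6a3 made up 37.1% of the collagen VI UMIs in the knockout cells (36.8 to 37.4, exact Clopper-Pearson interval) and 30.8% in the wild type cells (30.4 to 31.2). Col6a1 made up 33.2% and Col6a2 29.7% in the knockout cells, against 35.9% and 33.2% in the wild type cells. The neighbouring genes Col6a1 and Col6a2 kept a similar ratio to each other, with 1.12 Col6a1 UMIs per Col6a2 UMI in the knockout cells and 1.08 in the wild type cells. The ratio of Col6a3 to Col6a1 was 1.12 in the knockout cells and 0.857 in the wild type cells.

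Since knockout cells were deeper, cells were thinned to 3000 UMIs each before they were compared cell by cell, which left 1366 knockout and 1419 wild type cells (69 and 114 shallower cells left out). At this depth nearly all cells carried collagen VI. Col6a1 was seen in 96.5% of the knockout cells (95.4 to 97.4) and 88.8% of the wild type cells (87.0 to 90.4), Col6a2 in 93.0% and 88.0%, and Col6a3 in 93.3% and 82.0%. All 3 chains were seen in 85.6% of the knockout cells (83.6 to 87.4) and 67.9% of the wild type cells (65.4 to 70.3). Only 5 knockout and 19 wild type cells showed none of the 3. Without thinning the shares for Col6a1 were 99.0% and 96.9%.

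The other genes were seen in fewer cells. Col14a1 was seen in 63.3% of the knockout cells (60.7 to 65.9) and 46.5% of the wild type cells (43.9 to 49.15). Col8a1 was seen in 35.7% of the knockout cells (33.2 to 38.3) and 19.0% of the wild type cells (16.95 to 21.1). Col16a1 was seen in 21.2% (19.1 to 23.5) and 11.4% (9.81 to 13.2), and Col12a1 in 7.25% (5.93 to 8.75) and 5.29% (4.18 to 6.58). Without thinning these shares were 82.6% and 65.0% for Col14a1, 55.1% and 29.6% for Col8a1, 53.3% and 26.4% for Col16a1 and 21.05% and 13.3% for Col12a1.

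Free RNA was gauged in barcodes with at least 2 endothelial or immune markers and no Pdgfra UMI. Whether these barcodes express some of the collagens themselves was not tested, so their UMIs need not all be free RNA. After thinning, 8 such knockout and 29 such wild type barcodes remained, from 13 and 50 with median depths of 4554 and 3408.5 UMIs. None of the 7 genes was seen in the 8 knockout barcodes, a number that allows shares up to 36.9%; without thinning Col6a2 was seen in 4 of 13. In the 29 wild type barcodes Col6a1 was seen in 17.2% (5.85 to 35.8) and Col6a3 in 24.1% (10.3 to 43.5). Col6a2, Col14a1 and Col8a1 were seen in 10.3% each (2.19 to 27.4), and Col16a1 in 0, which allows shares up to 11.9%. The wild type shares of Col8a1 (19.0%) and Col16a1 (11.4%) lay within these intervals. Col12a1 was seen in 2 of the 29, or 6.90% (0.846 to 22.8), so its wild type share of 5.29% was not above that in these barcodes. The interval is wide, and the 5.29% is not read as the share of cells that express the gene.

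**Figure D2:**
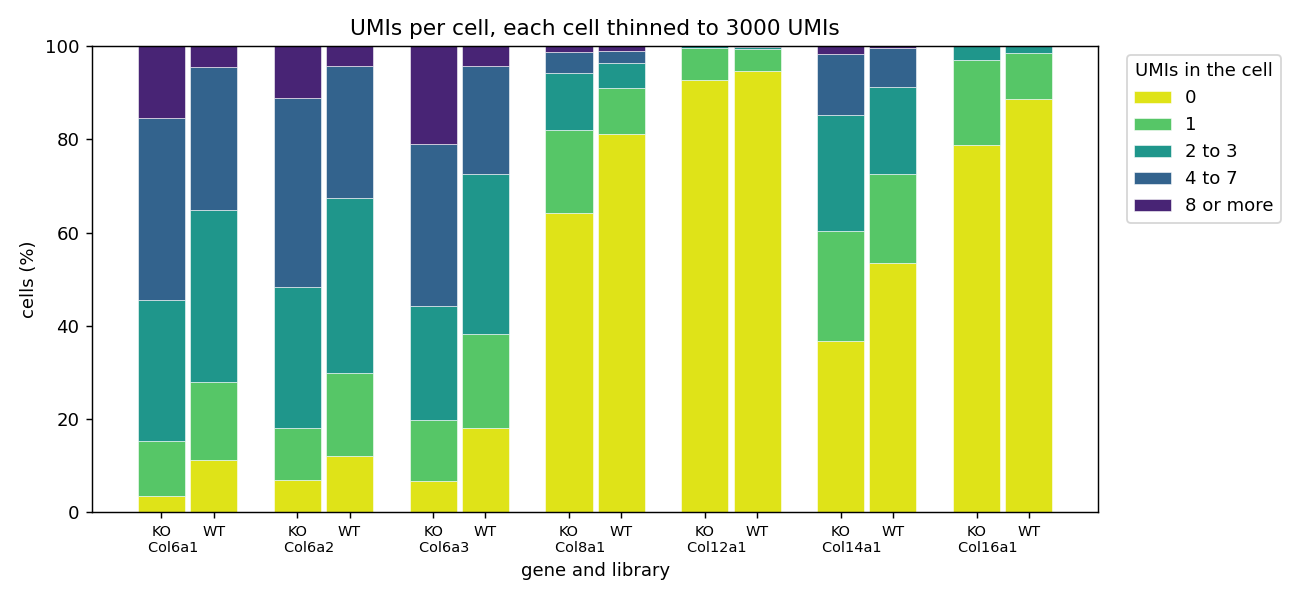
Percent of cells with 0, 1, 2 to 3, 4 to 7 or 8 or more UMIs of each gene after every cell was thinned to 3000 UMIs, with the knockout library (KO, 1366 cells) left of the wild type library (WT, 1419 cells). The collagen VI genes show few cells at 0, Col14a1 is intermediate, and most cells have no Col8a1, Col12a1 or Col16a1 UMI.

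Collagen VI was seen in nearly all cells, at levels that varied from cell to cell. The thinned cells had a median of 12 collagen VI UMIs in the knockout library, with the middle 80% of cells between 4 and 25, and a median of 8 in the wild type library, between 3 and 16. The 10% of cells with most held 22.7% of the collagen VI UMIs in the knockout library and 23.6% in the wild type library. The variance over the mean was 3.31 for Col6a3 in the knockout and 2.34 in the wild type cells, above 1.98 and 1.78 for Col6a2. This value's median over all genes with a mean of at least 0.05 UMIs per thinned cell was 1.045 (knockout) and 1.037 (wild type). Its 95th percentile over the same genes was 1.738 and 1.715. Random sampling of an even level gives about 1. These genes were not matched to collagen VI in level, and at the same relative spread the value rises with level.

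Col8a1 and, in wild type, Col12a1 were concentrated in few cells. The 10% of cells with most Col8a1 held 59.1% of its UMIs in the knockout library and 81.5% in the wild type library, and its variance over the mean was 3.675 and 5.88. Without thinning, 15 wild type cells (1%) held 37.0% of the wild type Col8a1 UMIs, against 16.5% in the top 14 knockout cells. For Col12a1 the top 1% of cells, ranked by that gene, held 19.0% of its UMIs in the knockout library and 40.0% in the wild type library, and the highest cell had 13 and 67 UMIs. The variance over the mean of Col12a1 was 1.04 in the knockout and 3.73 in the wild type cells. Col14a1 lay between these patterns, with a variance over the mean of 2.32 and 2.35.

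Over cells, the 3 collagen VI chains were correlated with each other in both libraries. Correlations were taken within each library on log2 of thinned UMIs plus 1. They are descriptions of cells that share a library, with no p-value. Among the 3 chains r was 0.45 for Col6a1 with Col6a2, 0.46 for Col6a1 with Col6a3 and 0.48 for Col6a2 with Col6a3 in the 1366 knockout cells. In the 1419 wild type cells the values were 0.39, 0.37 and 0.33. Within clusters of at least 50 cells, made without any collagen gene, the medians were 0.33, 0.34 and 0.36 in the knockout and 0.29, 0.29 and 0.17 in the wild type library. The neighbours on chromosome 10 were thus no more alike over the knockout cells than either was with Col6a3. Over the wild type cells their r was the highest of the 3 pairs, at 0.39 against 0.37 and 0.33.

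Of the remaining 18 pairs in each library the highest r was 0.14. Col14a1 had negative values with each collagen VI chain in both libraries, the lowest being -0.09 in the knockout and -0.11 in the wild type cells, with Col6a3. Col8a1 with Col12a1 was at 0.14 in both. Col8a1, Col12a1 and Col16a1 averaged 0.0754 to 0.826 UMIs per thinned cell. In such sparse counts weak values are no finding, and 13 of the 42 values changed sign under another measure, depth or within clusters.

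**Figure D3:**
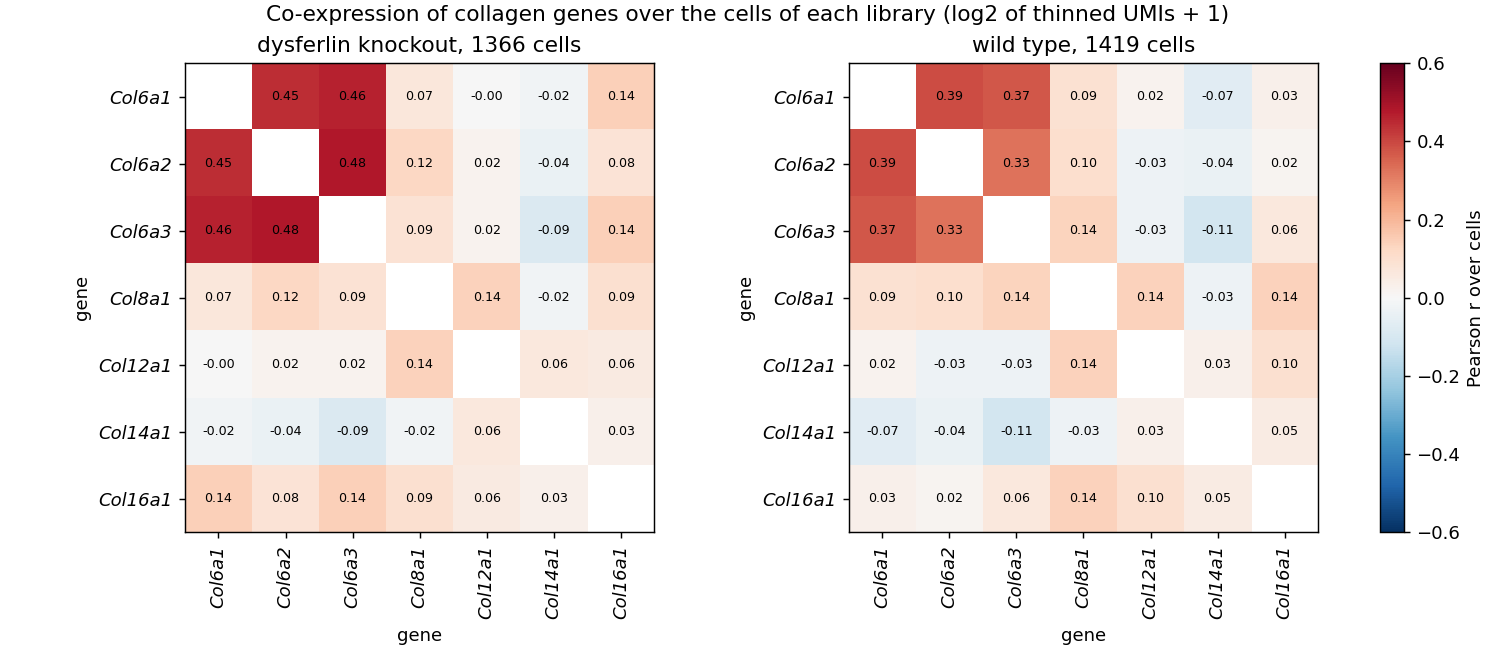
Pearson r over cells between the 7 genes (color scale from -0.6 to 0.6), in the knockout library on the left and the wild type library on the right; diagonal left blank. The block of Col6a1, Col6a2 and Col6a3 stands out, at 0.45 to 0.48 in the knockout and 0.33 to 0.39 in the wild type cells.

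The genes most like collagen VI were other matrix genes. Among 3619 genes seen in at least 10% of the thinned cells of both libraries, the highest mean r with the summed chains was that of Col3a1 (0.63 in the knockout and 0.51 in the wild type cells), then Col1a2 (0.58 and 0.43), Col4a1 (0.52 and 0.47), Col1a1 (0.55 and 0.40) and Sparc (0.55 and 0.39). These encode chains of fibrillar and basement membrane collagens and the collagen-binding protein SPARC. The median over all 3619 genes was 0.01. For Col16a1 the top genes were Col1a1, Col1a2 and Col3a1, at a mean r of 0.17, 0.16 and 0.14.

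Col8a1 and Col14a1 had other companions. Those of Col8a1 were Thbs4, the matrix glycoprotein thrombospondin-4 (0.50 in the knockout and 0.59 in the wild type cells), Cilp (0.46 and 0.51) and Ctgf (0.37 and 0.50), a matricellular growth factor modulator. Those of Col14a1 were the fibronectin gene Fn1 (0.31 and 0.32), the semaphorin Sema3c (0.25 and 0.29) and Ccdc80 (0.23 and 0.27). Col12a1 was too sparse for close companions: its highest value, with Aspn, encoding the proteoglycan asporin, was 0.08 in the knockout and 0.17 in the wild type cells.

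Cell states were read from marker pairs, taking cells with at least 1 UMI of both genes at 3000 UMIs. A cell can be in several states. Collagen VI and Col14a1 were ordered in opposite ways between cells with Hsd11b1 and Mme, which encode a glucocorticoid-activating enzyme and neprilysin, and cells with Dpp4 and Pi16, known as markers of fibroblast progenitors. The summed collagen VI chains had 5259 CPM in the 107 knockout cells with Hsd11b1 and Mme and 3515 CPM in the 166 with Dpp4 and Pi16. In wild type they had 4057 CPM in 157 cells with Hsd11b1 and Mme and 2410 CPM in 189 cells with Dpp4 and Pi16. Col14a1 had 319 CPM in the knockout cells with Hsd11b1 and Mme and 821 CPM in those with Dpp4 and Pi16, and in wild type 152 and 604 CPM. The log2 ratio of Hsd11b1 and Mme cells over Dpp4 and Pi16 cells was thus -1.36 for Col14a1 in the knockout and -1.99 in the wild type library, against 0.68 and 1.11 for Col6a3. Only 6 cells of each library were in both states.

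Cells with Gdf10 and Fmo2 had little collagen VI, at 2138 CPM in 35 knockout cells and 1858 CPM in 58 wild type cells, and almost no Col8a1, at 30.0 and 11.9 CPM. Cells with Cthrc1 and Postn, genes of activated fibroblasts, had much Col8a1, at 784 CPM in 39 knockout cells and 2402 CPM in 14 wild type cells. In these cells Col12a1 had 60.8 CPM in the knockout and 482 CPM in the wild type library. The 25 knockout cells with Cxcl9 and Ccl2 had 5797 CPM of collagen VI and 639 CPM of Col8a1, and there were 0 such wild type cells. Cells with Cpxm1 and C1qtnf3 had 5758 CPM of collagen VI in 74 knockout cells and 3832 CPM in 8 wild type cells.

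Within the 7 states with at least 25 cells of each library, Col6a1, Col6a2, Col6a3, Col14a1 and Col16a1 were higher in the knockout library in all 7. The ratios' counting intervals lay above 0 in 7 for Col6a3 and Col14a1, in 6 for Col6a2 and Col16a1 and in 5 for Col6a1. The log2 ratios ran from 0.36 to 1.23 for Col6a3, from 0.42 to 1.56 for Col14a1, from 0.68 to 1.41 for Col16a1 and from 0.05 to 0.55 for Col6a1. Col8a1 was higher in 6 of the 7, with counting intervals above 0 in 4. Its exception was the cells with Dpp4 and Pi16, at 160 CPM in the knockout and 183 CPM in the wild type, with an interval that spanned 0. Col12a1 was higher in 4, with the interval above 0 in 1, and lower in 3. Its interval lay below 0 in cells with Dpp4 and Pi16 and in cells with Egr1 and Ier2. Col6a3 also made up a larger share of collagen VI in the knockout cells in 7 of 7 states, with counting intervals apart in 6. The widest gap was in cells with Comp and Clu, at 37.3% in the knockout and 27.0% in the wild type, and the next in cells with Dpp4 and Pi16, at 34.6% and 26.1%.

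**Figure D4:**
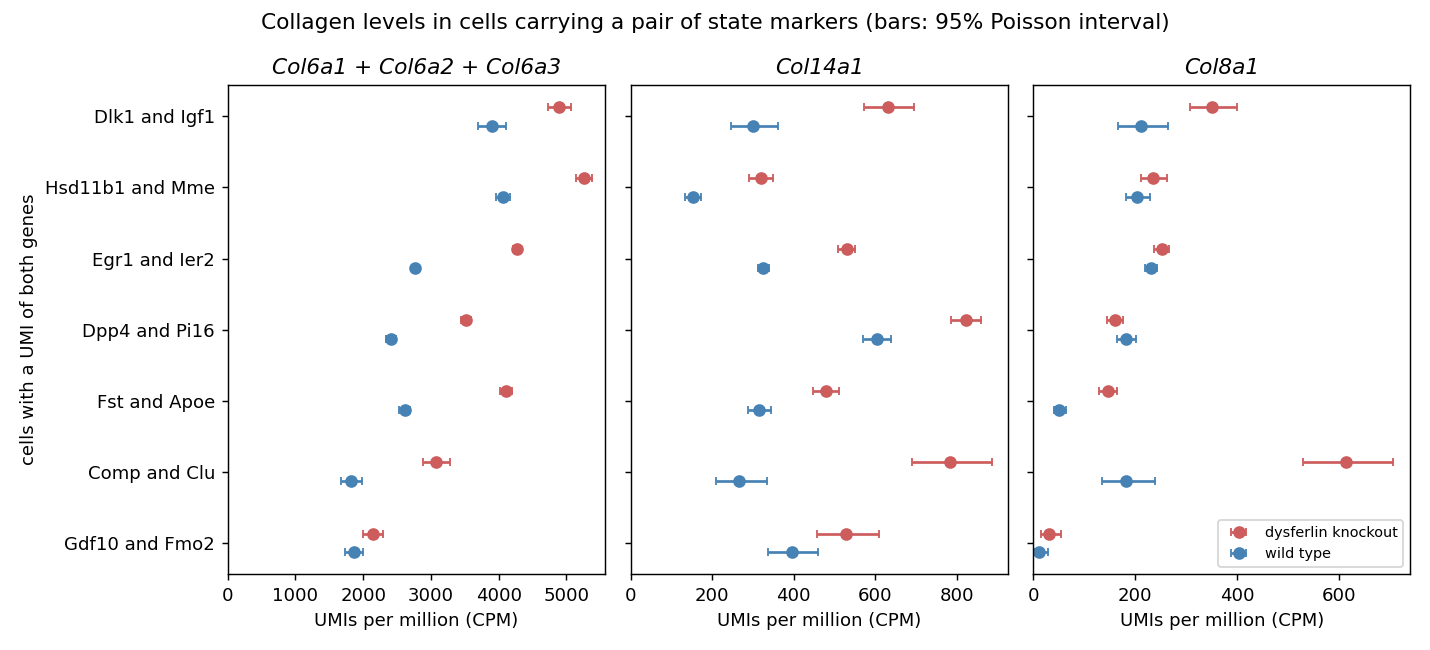
Level in CPM of the summed collagen VI chains, Col14a1 and Col8a1 in cells carrying both genes of a marker pair, knockout (red, upper) and wild type (blue, lower), for the 7 pairs with at least 25 cells of each library; bars are 95% Poisson intervals. Collagen VI is higher in the cells with Hsd11b1 and Mme than in those with Dpp4 and Pi16, and Col14a1 is lower.

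The makeup of the libraries moved with these ratios. Clusters made without any collagen gene gave 15 groups, of which cluster 0, led by C1qtnf3, Postn, Thbs4 and Cpxm1, held 44.2% of the knockout cells and 4.57% of the wild type cells. Of the 9 clusters with at least 50 cells it had the highest level of each collagen VI chain, with 2127 CPM of Col6a3 in the knockout and 2131 CPM in the wild type cells. It held 60.8% of the knockout Col6a3 UMIs and 48.7% of all knockout UMIs, against 17.9% and 7.79% in wild type. Without cluster 0, an alternative chosen after seeing the data, the log2 ratios were 0.22 for Col6a1 and Col6a2, 0.65 for Col6a3 and 0.95 for Col16a1.

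Within clusters the median ratios of the collagen VI chains were smaller than over all cells. In the 7 clusters with at least 25 cells of each library the median log2 ratio was 0.11 for Col6a1, higher in the knockout in 7 of 7, and 0.15 for Col6a2, higher in 5. By the same measure the median over all genes was 0.09, so the Col6a1 value was near it. The Col6a1 counting intervals spanned 0 in clusters 5, 7 and 10. For Col6a3 the median was 0.57, higher in 6. Its share of collagen VI was larger in the knockout in 6 of 7, with counting intervals apart in 5. The exception for both was cluster 0. There the Col6a3 log2 ratio was -0.003 (-0.064 to 0.059), and its share was 37.9% in the knockout and 38.6% in the wild type. The median was 0.44 for Col14a1, higher in 7 of 7, and 0.73 for Col16a1, higher in 6. Col16a1 was lower in cluster 0, at 96.7 CPM in the knockout and 145 CPM in the wild type cells (-0.585, -0.827 to -0.335). Counting intervals spanned 0 for Col14a1 in cluster 10 and for Col16a1 in clusters 7 and 10. Over the same 9 clusters Col14a1 was highest in cluster 6, led by Dact2, Car8, Cmah and Wnt10b, at 947 CPM in the knockout and 720 CPM in the wild type. It was lowest in cluster 10, led by Nrxn2, Nmb, P2ry1 and Hsd11b1, at 126 and 116 CPM, where Col6a1 had 1464 and 1385 CPM.

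Col8a1 and Col12a1 differed most from cluster to cluster. In cluster 0, Col8a1 had 398 CPM in the 634 knockout cells and 1355 CPM in the 70 wild type cells, a log2 ratio of -1.77 (-1.85 to -1.68). Outside cluster 0 its ratios in the shared clusters ran from 0.03 to 2.99, higher in the knockout in each, but with counting intervals that spanned 0 in clusters 6 and 10. The highest, in cluster 3, came from 57 knockout and 10 wild type UMIs (2.01 to 4.12). In cluster 0, Col12a1 had 25.3 CPM in the knockout and 175 CPM in the wild type cells (-2.79, -3.07 to -2.51). Without cluster 0 the log2 ratio of Col12a1 over all other cells was 0.40. Those 70 wild type cells held 41.6% of the wild type Col12a1 UMIs and 46.6% of the Col8a1 UMIs. The 6 tenocyte markers summed to 1471 CPM in the knockout and 3148 CPM in the wild type cells of cluster 0. Of these Thbs4, at 1449 and 3106 CPM, made up nearly all, and Tnmd had 19.4 and 39.2 CPM. Scx had 0.965 and 2.67 CPM, from 9 and 3 UMIs. Mkx, Kera and Chodl had 7, 4 and 2 UMIs in the knockout cells and 0 in the wild type cells, too few to compare. Tendon was removed at dissection and PDGFRα-positive cells were sorted, per the protocol, and the part of tenocytes in these values was not tested.

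**Figure D5:**
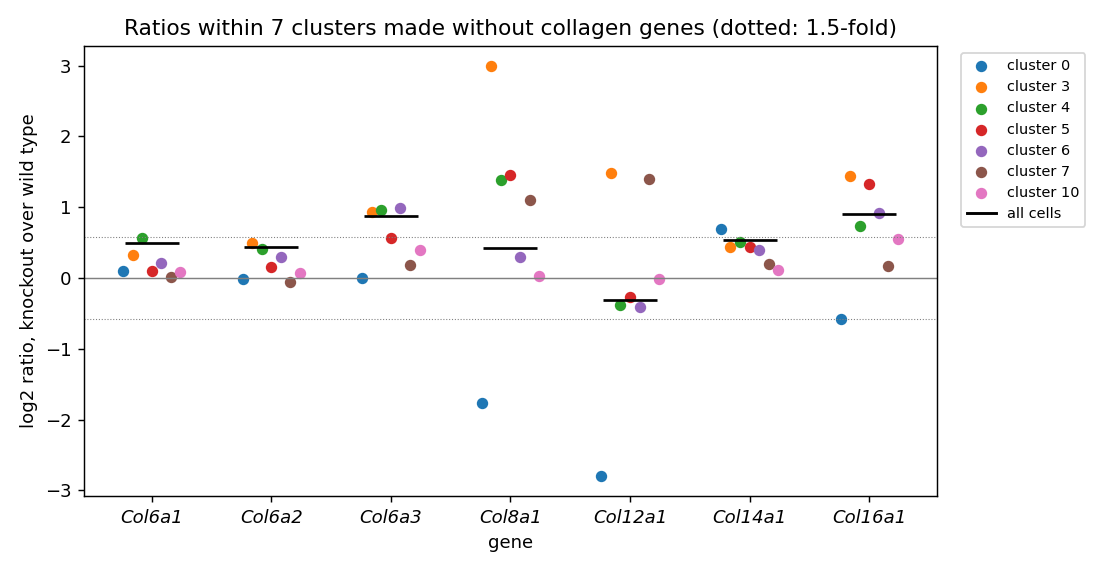
Log2 ratio of knockout over wild type for each gene within the 7 clusters that hold at least 25 cells of each library (colored points) and over all chosen cells (black lines); dotted lines mark 1.5-fold. Col14a1 is above 0 in each cluster. In cluster 0, Col8a1 and Col12a1 are far below 0 and Col16a1 is at -0.585. The Col6a1 and Col6a2 points lie mostly below their lines.

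The other genes of the same matrix pathways, in lists chosen with earlier results known, were mixed. Of 16 collagen VI partners and receptors 12 had at least 20 CPM, 0 were at least 1.5-fold higher and 1 was lower, with a median log2 ratio of 0.04 beside 0.05 over all genes. Over all 5933 genes 5.07% were higher and 3.59% lower by the same criterion, shares against which the counts of this and the next lists are given. The lower member was the matrix glycoprotein gene Fbln1, at 150 CPM in the knockout and 264 CPM in the wild type (-0.82). The small proteoglycans that bind collagen VI differed in direction: Bgn had 1985 and 1486 CPM (0.42), and Dcn had 13855 and 18914 CPM (-0.45). The receptor gene Lrp1 had 730 and 725 CPM.

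Of 12 fibril surface partners 10 were measured, 2 higher and 1 lower (all genes 5.07% and 3.59%), with a median of 0.25. The higher members were Postn (710 CPM in the knockout and 351 CPM in the wild type, 1.01) and Thbs4 (942 and 569 CPM, 0.73), and the lower was Comp (48.8 and 75.4 CPM, -0.63). Tnxb, encoding tenascin-X, which binds collagens XII and XIV, had 959 and 963 CPM, and Lum had 1979 and 1480 CPM (0.42).

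Of 37 other collagen genes 14 were measured, 7 at least 1.5-fold higher and 1 lower (all genes 5.07% and 3.59%), with a median of 0.60. The higher genes were Col3a1 (1.33), Col27a1 (1.01), Col1a1 (0.98), Col1a2 (0.98), Col6a6 (0.86), Col5a2 (0.77) and Col4a2 (0.65), and the lower was Col4a4 (-0.64). Col6a6, which encodes an alternative to the Col6a3 chain, had 115 CPM in the knockout and 63.5 CPM in the wild type. The remaining collagen VI genes, named here after their values were seen, were under the 20 CPM minimum: Col6a5 had 9.86 CPM in the knockout and 1.66 CPM in the wild type, and Col6a4 had 0.209 and 0 CPM. Of 22 genes of collagen maturation 20 were measured, 1 higher and 0 lower (all genes 5.07% and 3.59%), with a median of 0.27, so the count of higher genes was near the share over all genes. The higher gene was the crosslinking enzyme gene Lox, at 147 and 95.8 CPM (0.62). The collagen chaperone gene Serpinh1 had 1320 and 1096 CPM, Pcolce 1406 and 1313 CPM, and Ppib 637 and 590 CPM, all within 1.5-fold.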

How the data were processed

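The deposited matrices hold raw UMI counts per gene and cell barcode, 1 matrix per group, made with the 10x Genomics 3′ kit, version 3, per the labels' protocols. Cell Ranger 3.0.0, Seurat and the build mm10 appear, per the submitters' processing notes, without a stated role, and the file headers give software version 3.0.2. Aligner settings, strand use and the calling of cells are not given in the sources used here. Deposited barcodes had a lowest total of 500 UMIs in the knockout and 501 in the wild type library.

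Cells were chosen by genes, mitochondrial share and Pdgfra as stated in the report. Doublets were gated out in the sort by pulse width, per the labels' protocols; none were removed here, and Scrublet (scanpy 1.11.5) called 6 in the knockout and 4 in the wild type cells. UMIs were summed per library and divided by the library's total to give CPM. Ratios carry exact conditional binomial 95% intervals, shares exact Clopper-Pearson intervals and levels exact Poisson intervals; all cover counting error only. Clusters used 2000 variable genes with 45 collagen genes left out, 30 components, 15 neighbours and Leiden resolution 0.8. The calculations were tested on simulated counts. The genes named are the 7 collagens, the genes most like them over cells (5 for collagen VI, 3 for each other gene), and from 4 lists the genes at least 1.5-fold apart and the 3 highest; Col6a4 and Col6a5 were added after their values were seen. State, cluster and cell type markers are named as such. The genes, lists, marker pairs and rules were chosen with earlier results of these data known.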

Additional observations from a re-analysis of the deposited data

How the results depend on the processing

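Each log2 ratio was recomputed under 14 alternatives. Col6a1, Col6a2, Col6a3, Col8a1, Col14a1 and Col16a1 stayed above 0 in all 14, and Col16a1 stayed past 1.5-fold in 14 and Col6a3 in 13, its exception being the median over shared clusters at 0.57. Col8a1, 0.42 over all cells, ranged from 0.22 without cells carrying Cxcl9 or both Cpxm1 and C1qtnf3 to 1.11 over shared clusters and passed 1.5-fold in 4 of 14. Col14a1 ranged from 0.44 to 0.60 and passed in 2, and Col6a1 and Col6a2 passed in 0. Col12a1 was above 0 in 4 of 14, from -0.53 to 0.40, and within 1.5-fold in each. The median over the 7 genes was 0.53 with no cell filter beyond a Pdgfra UMI, with at least 3 Pdgfra UMIs and without cells of other classes, 0.52 with no Pdgfra gate, 0.56 where each cell weighed the same, 0.60 in thinned cells, 0.44 under median-ratio scaling, with mitochondrial and ribosomal protein genes left out of the total and over shared clusters, and 0.28 without cells carrying Cxcl9 or both Cpxm1 and C1qtnf3 (504 knockout and 63 wild type cells). In thinned cells 4 of the 7 genes were at least 1.5-fold higher, and under a 2-fold criterion 0. Genes past 1.5-fold over the whole table, 301 higher and 213 lower, numbered 634 and 425 with a mean of at least 5 CPM, 3716 and 2781 with no filter on level, and 105 and 60 past 2-fold; over shared clusters 91 were lower. The cause of these shifts was not tested beyond the cells or genes each alternative leaves out. Shares of cells with a UMI moved with depth in all 28 recomputed values. No paired analysis was possible because each group's 4 labelled samples are 1 matrix in which barcodes map to no sample, so no replicate could be left out either. Depth limits Col12a1 and Col16a1 most, with 505 and 1577 UMIs in the knockout and 473 and 634 in the wild type cells.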
